A study of Mus musculus with 8 samples.

Results

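The response of C2C12 cells to BMP-2 while dynamin was blocked was measured on 4 of the 8 arrays of the series, 2 from BMP-2+Dynasore cells and 2 from Dynasore cells. The arrays were chosen by their treatment labels alone. A gene is described as changed where it was called and both BMP-2+Dynasore arrays lay on the same side of both Dynasore arrays. Members of gene lists and genes the study names are given with their values also where the arrays overlapped. C2C12 is an established mouse myoblast line that forms myotubes when serum is withdrawn and can be turned towards the osteoblast lineage by BMP-2. In the study cells were kept without serum for 4 h, the last 2 h of it with inhibitor or vehicle, and then for 6 h with or without the ligand in the continued presence of inhibitor or vehicle. BMP-2+Dynasore cells received 40 µM dynasore and 30 nM BMP-2, Dynasore cells 40 µM dynasore without ligand, BMP-2+DMSO cells 30 nM BMP-2 with 0.05% DMSO, and DMSO cells the vehicle without ligand, with 2 arrays in each group. The study's dynasore stock was made in DMSO, so the dynasore groups also received this solvent, at a share not stated for them. All groups are the same unmodified line. The study's methods call the 2 arrays of a group biological duplicates without saying how the cultures were separated, and p-values measure the spread between these arrays.

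BMP-2 binds pairs of type I and type II serine/threonine kinase receptors at the cell surface. The type I receptor phosphorylates Smad1, Smad5 and Smad8, which join Smad4, enter the nucleus and switch on target genes such as the Id genes and the inhibitory Smads. Dynasore inhibits the GTPase activity of dynamin, the protein that pinches endocytic vesicles from the membrane, so the comparison asks which BMP-2 target genes still respond when vesicles cannot detach.

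The array holds 18138 probes, and the 9889 that exceeded background on 2 or more of the 6 BMP-2+Dynasore, Dynasore and DMSO arrays were tested. The 3 groups were fitted together in limma, and no BMP-2+DMSO array entered the normalization or the fit. Signals below are normalized intensities in array units, and about 67.5 to 70.1 units was the background limit on the 4 arrays. Of the 4 arrays 1 stood apart. BMP-2+Dynasore replicate 2 carried 334 tested probes that were more than 1 log2 unit below replicate 1, against 19 in the other direction, while the Dynasore duplicates had 7 and 5 such probes. One of the 2 Hspa8 probes read 592.6 on replicate 2 and 15118 on replicate 1, and Eef2 read 283.4 and 6437, with 6467 to 6700 on the Dynasore arrays. Of the 334 probes, 284 (85.0%) were also more than 1 log2 unit lower on BMP-2+DMSO replicate 2 than on its duplicate, which was so for 21.3% of all tested probes. None of the 334 was called in either direction. The gap between duplicates enters the spread used for a call, so such probes could hardly be called. Duplicates of called probes differed by up to 0.68 log2 units, and whether smaller losses on replicate 2 entered the calls was not tested.

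**Figure D1:**
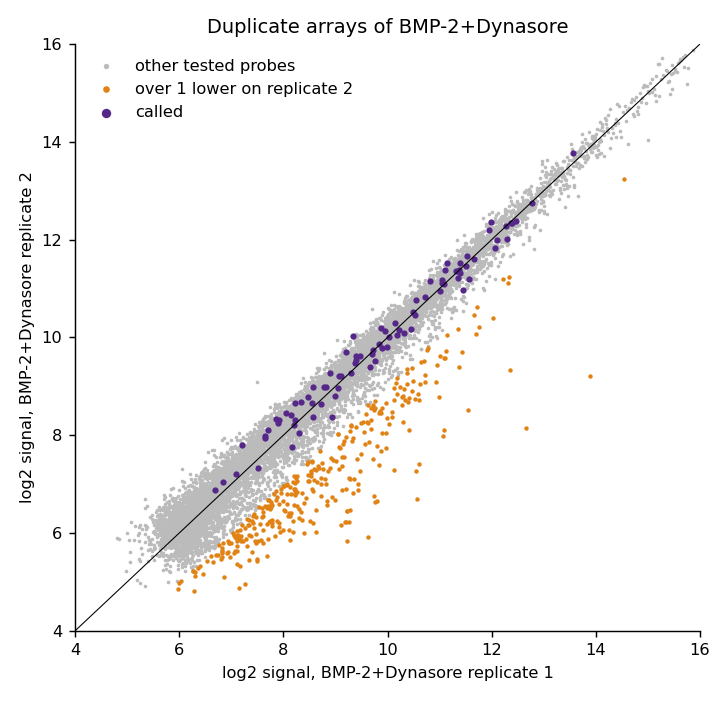
Log2 signal of each tested probe on BMP-2+Dynasore replicate 2 (vertical) against replicate 1 (horizontal), with the line of equality. The 334 orange probes were more than 1 log2 unit lower on replicate 2, and the called probes (purple) lay within 0.68 log2 units of the line.

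Myoblast markers were present on all 4 arrays: 7 of the 8 measured, among them Des and Chrna1, were above background and Myf5 was not, with a summed signal of 7714 to 8215 on BMP-2+Dynasore arrays and 8955 to 9395 on Dynasore arrays. None of 7 endothelial and none of 5 adipocyte markers was above background on any of the 4 arrays, and of 6 blood cell markers 5, Ptprc among them, were at background throughout. The remaining blood cell marker was above background on each of the 4 arrays. Of 5 neural markers 4 were at background throughout, and 1 was above it on BMP-2+Dynasore replicate 2 and both Dynasore arrays. Duplicate arrays correlated at r = 0.977 in BMP-2+Dynasore and 0.994 in Dynasore over the tested probes.

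BMP-2 still changed gene expression under dynasore. It raised 63 probes (0.637% of those tested) and lowered 23 (0.233%) at an adjusted p under 0.05, 86 in all (0.870%), and these stand for 57 and 21 named genes. The strongest rises were the direct BMP target genes Smad6, Hey1, Id3, Dlx2 and Id1, all between 4.93-fold and 9.41-fold, and 43 of the 63 rises but 6 of the 23 falls exceeded 2-fold. The arrays of the groups did not overlap for any of the 86 called probes. Over all tested probes 2371 (24.0%) had both BMP-2+Dynasore arrays above both Dynasore arrays and 1763 (17.8%) had both below, and when the deposited values were floored at 16 with no further scaling the split was 3177 and 1023. With 2 arrays against 2 an exact permutation test of a single gene cannot go below p = 0.333, so calls rest on the spread shared across probes in limma.

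The counts depended on single arrays. Without BMP-2+Dynasore replicate 2 there were 91 rises and 83 falls, and without replicate 1 there were 699 and 1002. Without Dynasore replicate 1 or 2 there were 33 or 32 rises and 6 or 5 falls, and without either DMSO array 45 and 13. Every one of the 86 called probes kept its sign in each of these fits. This was fixed in advance, because their arrays did not overlap and DMSO arrays do not enter the change.

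**Figure D2:**
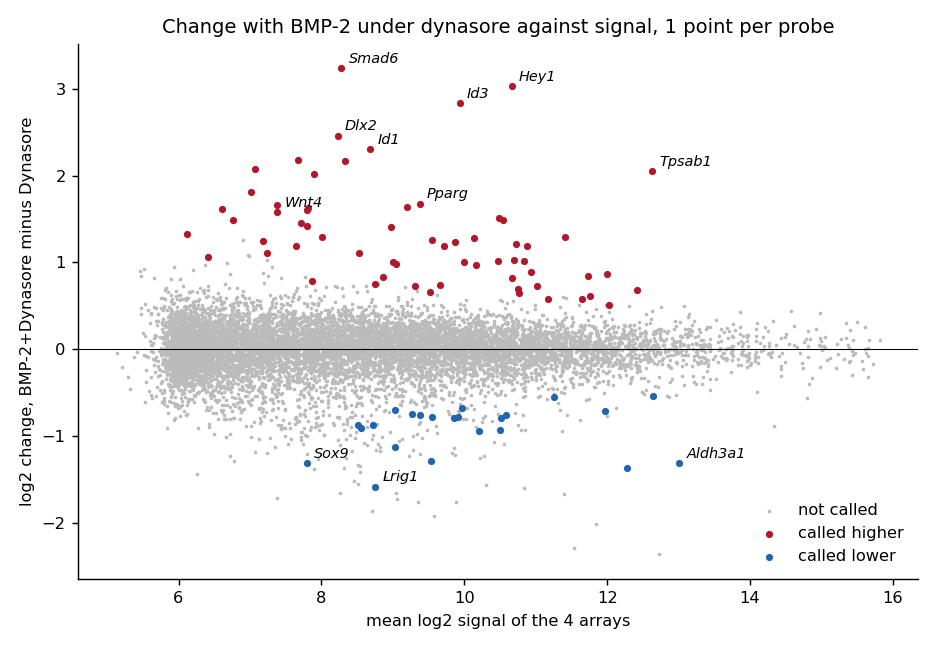
Log2 change, BMP-2+Dynasore minus Dynasore (vertical), against the mean log2 signal of the 4 arrays (horizontal), 1 point per tested probe. The 63 called rises (red) reached 3.23 for Smad6 and the 23 called falls (blue) reached −1.58 for Lrig1.

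The promoters of some of the rises are shown here, because short GC-rich motifs bound by the BMP Smads can be read in them directly. GGCGCC and GCCGNCGC are letters of the kind that Smad1 and Smad5 bind with Smad4, and GTCTAGAC is the palindrome of the classical Smad box. Both strands were searched in the 250 bases before the transcription start in RefSeq windows of build GRCm38.p6, which matched 48 of the genes that rose and 14 of those that fell. Capitals mark a GGCGCC motif.

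Wnt4 (chr4:137277385-137277634, plus strand): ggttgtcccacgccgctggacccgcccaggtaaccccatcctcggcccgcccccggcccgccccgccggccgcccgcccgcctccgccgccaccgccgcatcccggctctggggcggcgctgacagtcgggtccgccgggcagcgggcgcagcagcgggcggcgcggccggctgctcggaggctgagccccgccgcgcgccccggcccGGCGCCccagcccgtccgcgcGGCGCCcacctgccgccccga
Dlx2 (chr2:71546755-71547004, minus strand): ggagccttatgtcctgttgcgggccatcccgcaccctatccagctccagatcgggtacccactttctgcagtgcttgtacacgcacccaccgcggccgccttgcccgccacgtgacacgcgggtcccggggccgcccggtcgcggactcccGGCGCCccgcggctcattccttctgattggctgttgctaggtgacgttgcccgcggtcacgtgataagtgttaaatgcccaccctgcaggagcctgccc
Id2 (chr12:25096093-25096342, minus strand): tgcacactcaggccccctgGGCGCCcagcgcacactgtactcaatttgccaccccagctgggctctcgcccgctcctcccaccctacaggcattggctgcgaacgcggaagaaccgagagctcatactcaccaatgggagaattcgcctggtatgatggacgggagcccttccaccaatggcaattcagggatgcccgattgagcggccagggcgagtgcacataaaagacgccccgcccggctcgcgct
Smad6 (chr9:64022060-64022309, minus strand): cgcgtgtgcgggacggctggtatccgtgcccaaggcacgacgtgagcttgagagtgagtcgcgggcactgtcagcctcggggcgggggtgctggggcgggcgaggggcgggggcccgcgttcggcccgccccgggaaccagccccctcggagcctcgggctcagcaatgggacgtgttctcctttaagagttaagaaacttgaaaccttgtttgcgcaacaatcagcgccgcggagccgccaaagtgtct
Id3 (chr4:136143572-136143821, plus strand): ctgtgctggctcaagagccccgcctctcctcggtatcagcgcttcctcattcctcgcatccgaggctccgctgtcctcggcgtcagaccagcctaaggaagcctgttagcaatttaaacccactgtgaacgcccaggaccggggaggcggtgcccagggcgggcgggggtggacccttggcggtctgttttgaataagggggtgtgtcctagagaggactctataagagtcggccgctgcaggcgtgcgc

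Of 9 windows read out for genes described here, 3 held GGCGCC, all shown, in 2 places in Wnt4 and once each in Dlx2 and Id2. The other 6 did not hold it: Smad6, the largest rise, and Id3, both shown, and Atoh8, Gadd45b, Inhba and Snai1. No window was available for Hey1, Id1, Sox9, Krt16 and Skil, so their promoters were not searched. GGCGCC was found in 18 of the 48 matched rises (37.5%) and in 1 of the 14 matched falls, against 19.0% of the 7397 tested genes with a window and 10.9% of all 27025 genes. GCCGNCGC was found in 16 of the 48 rises and 6 of the 14 falls, against 14.3% of tested genes. GTCTAGAC was in none of the windows of rises and falls and in 0.270% of tested genes. The windows of rises and falls had median GC contents of 65.2% and 66.8%, against 59.6% over tested genes, and GC content moves with the chance of such letters, whose part in the counts was not tested.

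Among the tested feedback and signaling Smads, Smad6 stood out. For Smad7, another inhibitory Smad, no probe was found, and Smad9 (Smad8) did not pass the filter. Smad6 is an inhibitory Smad that BMP signals induce and that turns the same pathway down. Its probe read 1016 and 894.5 on BMP-2+Dynasore arrays, against 91.8 and 111.8 on Dynasore arrays and 231 and 222 on DMSO arrays. Both BMP-2+Dynasore arrays were far above all the others, by 9.41-fold over Dynasore (log2 change 3.23 ± 0.16, SE, adjusted p = 6.34e-06), although dynasore alone had put this probe 1.16 log2 units below DMSO. A second Smad6 probe read 599.9 on BMP-2+Dynasore replicate 1 but 56.9 on replicate 2, against 87.7 and 68.2 on Dynasore arrays, and was not called.

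Of 12 tested members of a list of Smads and their direct partners, 2 rose and none fell, where 0.637% of all tested probes were called higher. Their median log2 change was 0.07 against 0.02 over all tested probes. The other rise was Skil, which encodes a corepressor that binds Smads. It read 534 and 591 on BMP-2+Dynasore arrays and 305 and 363 on Dynasore arrays, a 1.69-fold difference close to the threshold (adjusted p = 0.0472). The transducers that were tested were not called: Smad1 had a log2 change of 0.24, the 2 Smad5 probes of 0.10 and −0.10, and Smad4 of −0.07. Map3k7, the kinase TAK1 of the branch that bypasses the Smads, read 158 and 155 on BMP-2+Dynasore arrays and 119 and 97 on Dynasore arrays, and was not called (adjusted p = 0.343).

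**Figure D3:**
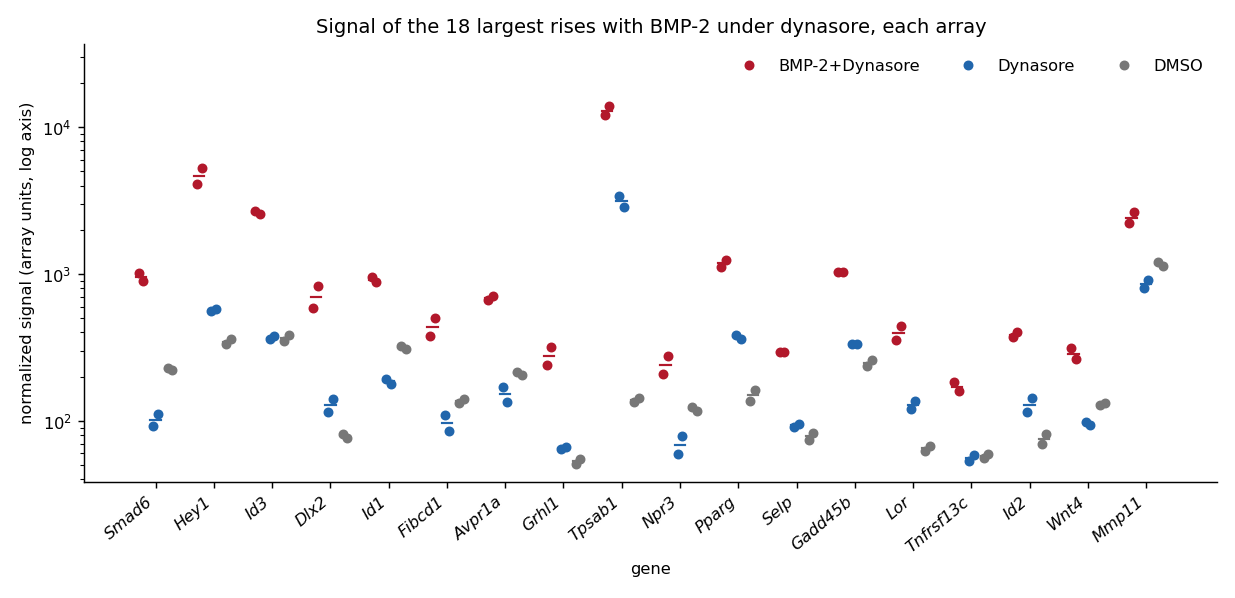
Normalized signal on a log axis for the 18 largest called rises with a gene symbol, in order of log2 change from left to right, on each BMP-2+Dynasore (red), Dynasore (blue) and DMSO (grey) array, with a bar at the mean of the log values of a group. In every gene the red points lie above the blue ones, and the Dynasore level was above DMSO in some genes (Tpsab1, Pparg) and below it in others (Smad6, Id1).

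The Id genes encode helix-loop-helix proteins without a DNA-binding region, which hold back myogenic factors by binding their partners. Id3 read 2668 and 2558 on BMP-2+Dynasore arrays, against 360 and 376 on Dynasore arrays and 351 and 386 on DMSO arrays. Duplicates were close to each other and the Dynasore level lay within that of DMSO cells. The 7.11-fold rise (log2 change 2.83 ± 0.12, SE, adjusted p = 3.76e-06) had the smallest SE of the 5 largest. Id1 read 956 and 877 on BMP-2+Dynasore arrays, against 194 and 178 on Dynasore arrays and 324 and 308 on DMSO arrays, a 4.93-fold rise (adjusted p = 2.89e-05). Id2 read 372 and 402 on BMP-2+Dynasore arrays, against 114 and 143 on Dynasore arrays and 69.4 and 81 on DMSO arrays, a 3.03-fold rise (adjusted p = 0.00172). All 3 genes rose, from a Dynasore level that lay below DMSO for Id1, at DMSO for Id3 and above DMSO for Id2. Id4 did not pass the filter.

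Hey1, a repressor of the Hairy family known from both Notch and BMP signaling, gave the second largest rise. It read 4072 and 5278 on BMP-2+Dynasore arrays, against 561 and 574 on Dynasore arrays and 335 and 358 on DMSO arrays, which is 8.17-fold over Dynasore (log2 change 3.03 ± 0.14, SE, adjusted p = 4.33e-06). It was the single call among 13 tested members of a Notch list, whose median log2 change was 0.12. Over all tested probes 0.870% were called, so few calls are the background for such a list. Hes1, the usual Notch readout, read 777 and 571 on BMP-2+Dynasore arrays and 497 and 449 on Dynasore arrays (adjusted p = 0.306).

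The Dlx homeobox genes act in skeletal patterning and osteoblast differentiation. Dlx2 read 591 and 833 on BMP-2+Dynasore arrays, against 115 and 142 on Dynasore arrays, a 5.50-fold rise (adjusted p = 0.000204). Dlx3 was abundant in both groups, at 4478 and 5220 on BMP-2+Dynasore arrays and 3400 and 3388 on Dynasore arrays, and missed the threshold (log2 change 0.51 ± 0.11, SE, adjusted p = 0.0748). Dlx1 read 333 and 461 on BMP-2+Dynasore arrays and 233 and 283 on Dynasore arrays, and was not called (log2 change 0.61, adjusted p = 0.255). Of 9 tested Id, Dlx, Hey and Msx genes 5 rose and none fell, with both BMP-2+Dynasore arrays above both Dynasore arrays in 8, and their median log2 change was 1.60. Over all tested probes 0.637% were called higher and 24.0% had both arrays above. Msx2, at 108 and 66 on BMP-2+Dynasore arrays and 79 and 72 on Dynasore arrays, was the member whose arrays overlapped.

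In a wider list of BMP and Smad target genes 18 of 26 members were tested, of which 7 rose and 1 fell, with a median log2 change of 0.58, where 0.637% of all tested probes rose and 0.233% fell. Atoh8, a helix-loop-helix factor, read 102 and 118 on BMP-2+Dynasore arrays and was not above background on the Dynasore arrays, so it rose at least 1.60-fold (adjusted p = 0.00893). Nog, which encodes the BMP antagonist noggin, read 78 and 92 on BMP-2+Dynasore arrays and 45 and 43 on Dynasore arrays, and missed the threshold (adjusted p = 0.0791). Grem1, another antagonist, changed by 0.55 log2 units (adjusted p = 0.193).

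Sox9 was the list's fall. It encodes the chondrocyte factor that BMP signals induce in cartilage. It read 136 and 147 on BMP-2+Dynasore arrays, against 339 and 363 on Dynasore arrays and 195 and 160 on DMSO arrays. The BMP-2+Dynasore arrays were the lowest of the 6, and the gene was 2.48-fold lower than in Dynasore cells (log2 change −1.31 ± 0.17, SE, adjusted p = 0.00374).

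Of 19 listed osteoblast genes 8 passed the filter and none was called, with a median log2 change of −0.10. With 0.870% of all tested probes called, a count of 0 among 8 is near the background. Alpl, the alkaline phosphatase used to follow osteoblast differentiation, read 94 and 88 on BMP-2+Dynasore arrays, against 84 and 84 on Dynasore arrays (log2 change 0.11, SE 0.18, adjusted p = 0.826). Col1a1 read 104 and 121 on BMP-2+Dynasore arrays and 159 and 143 on Dynasore arrays, and Sparc 10813 and 6467 on BMP-2+Dynasore arrays against 10613 and 11100 on Dynasore arrays. Bglap, Ibsp and Sp7 had probes that were not above background on enough arrays to be tested. For Runx2, an early osteoblast regulator that the study followed by qPCR, no probe was found. Of 17 tested muscle genes none was called, with a median log2 change of −0.01; Myod1, the myogenic master factor, read 115 and 86 on BMP-2+Dynasore arrays and 76 and 74 on Dynasore arrays.

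Few ligands and no receptors of the wider family were called, where 0.870% of all tested probes were. Of 11 tested BMP and activin ligands and antagonists 1 rose, Inhba, which encodes the activin A subunit. It read 2623 and 2378 on BMP-2+Dynasore arrays, against 938 and 840 on Dynasore arrays and 843 and 943 on DMSO arrays. The BMP-2+Dynasore arrays were far above the other 4, which overlapped, and the 2.81-fold rise had an adjusted p of 0.000201. Of 10 tested BMP receptors and co-receptors none was called, a count near the background for a list of this size. Bmpr1a, the type I receptor, read 881 and 811 on BMP-2+Dynasore arrays and 561 and 651 on Dynasore arrays (adjusted p = 0.182), and Acvr1, another type I receptor, 1661 and 1516 against 1523 and 1516.

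Wnt4, a Wnt ligand, read 313 and 263 on BMP-2+Dynasore arrays, against 98.4 and 94.1 on Dynasore arrays, a 2.98-fold rise (adjusted p = 0.00127). It was the 1 call among 15 tested Wnt pathway genes, where 0.870% of all tested probes were called. Avpr1a, the V1a vasopressin receptor, read 664 and 707 on BMP-2+Dynasore arrays and 171 and 135 on Dynasore arrays, a 4.51-fold rise. Npr3, the natriuretic peptide clearance receptor, rose 3.51-fold, the netrin receptor gene Unc5b 2.28-fold, and Selp, which encodes P-selectin, 3.15-fold. Tnfrsf13c, the BAFF receptor, was not above background on the Dynasore arrays and rose at least 2.49-fold. Fibcd1, a receptor for acetylated sugars, read 378 and 504 on BMP-2+Dynasore arrays and 109 and 84.8 on Dynasore arrays, and its groups were separate although its duplicates differed by more than those of Id3.

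Pparg, the nuclear receptor that directs fat cell formation, read 1125 and 1252 on BMP-2+Dynasore arrays, against 384 and 360 on Dynasore arrays and 137 and 162 on DMSO arrays, so that it stood above DMSO with dynasore and higher again with BMP-2 (3.19-fold over Dynasore, adjusted p = 0.000279). No adipocyte marker was above background. Grhl1, an epithelial transcription factor, rose at least 4.02-fold, and Snai1, a repressor of E-cadherin, 2.27-fold. Gadd45b, a stress and growth arrest gene, read 1037 and 1028 on BMP-2+Dynasore arrays, against 333 and 332 on Dynasore arrays, a 3.10-fold rise with close duplicates. Its relative Gadd45g read 4415 and 4086 on BMP-2+Dynasore arrays, against 1732 and 1731 on Dynasore arrays and 3702 and 4006 on DMSO arrays, so that the BMP-2+Dynasore arrays lay near the DMSO level.

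Krt16, a keratin of stratified epithelium, read 646 and 1038 on BMP-2+Dynasore arrays, against 304 and 314 on Dynasore arrays and 99.5 and 76.9 on DMSO arrays, a 2.65-fold rise whose duplicates differed by 0.68 log2 units (adjusted p = 0.0225). Lor, which encodes loricrin of the cornified envelope, rose 3.09-fold. Krt14 read 2127 and 2201 on BMP-2+Dynasore arrays and 1222 and 1230 on Dynasore arrays, a 1.76-fold rise. Krt14 also carried most of the epithelial marker sum, which was 2391 to 2515 on BMP-2+Dynasore arrays and 1455 to 1512 on Dynasore arrays, while Cdh1, Krt5, Krt18 and Cldn4 were at background on all 4 arrays.

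Some rises took place on top of a large effect of dynasore alone. That comparison shares the Dynasore arrays with the one described here, so the values are given side by side only. Tpsab1, a mast cell tryptase, read 12015 and 13920 on BMP-2+Dynasore arrays, against 3388 and 2882 on Dynasore arrays and 135 and 143 on DMSO arrays. It was 4.14-fold higher with BMP-2 (adjusted p = 2.89e-05) in cells where dynasore alone had raised it by 4.49 log2 units. Car12, a carbonic anhydrase, read 477 and 614 on BMP-2+Dynasore arrays, against 237 and 268 on Dynasore arrays and 43.3 and 48.1 on DMSO arrays. The reverse pattern was found in G0s2, an inhibitor of fat breakdown, at 323 and 409 on BMP-2+Dynasore arrays, 142 and 129 on Dynasore arrays and 921 and 1063 on DMSO arrays, and in Dapk2, a death-associated kinase, at 299 and 403 on BMP-2+Dynasore arrays, 129 and 125 on Dynasore arrays and 682 and 590 on DMSO arrays. In these 2 genes the BMP-2+Dynasore level lay between the other groups. Of the 63 rises 20 were called higher and 24 lower in Dynasore against DMSO, where 18.6% and 20.1% of all tested probes were.

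The falls were fewer and smaller. Lrig1, a membrane protein that restrains growth factor receptors, read 285 and 217 on BMP-2+Dynasore arrays, against 735 and 755 on Dynasore arrays and 1554 and 1819 on DMSO arrays, and was the lowest of the falls with BMP-2 (log2 change −1.58 ± 0.15, SE, adjusted p = 0.000538). Aldh3a1, an aldehyde dehydrogenase, read 5310 and 5153 on BMP-2+Dynasore arrays, against 12321 and 13730 on Dynasore arrays and 6708 and 6188 on DMSO arrays. Its BMP-2+Dynasore level was thus slightly under that of DMSO cells, 2.49-fold below Dynasore (adjusted p = 0.000136). Mrgprf, an orphan receptor, was 2.43-fold lower at 440 and 510 on BMP-2+Dynasore arrays against 1221 and 1090 on Dynasore arrays. Gfod1 was 2.17-fold lower, and Lbh, Fmo1, Medag, Sh3bp2 and Adarb1 were between 1.83-fold and 1.92-fold lower. Both probes of Hid1 were called, at −0.76 and −0.79 log2 units.

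**Figure D4:**
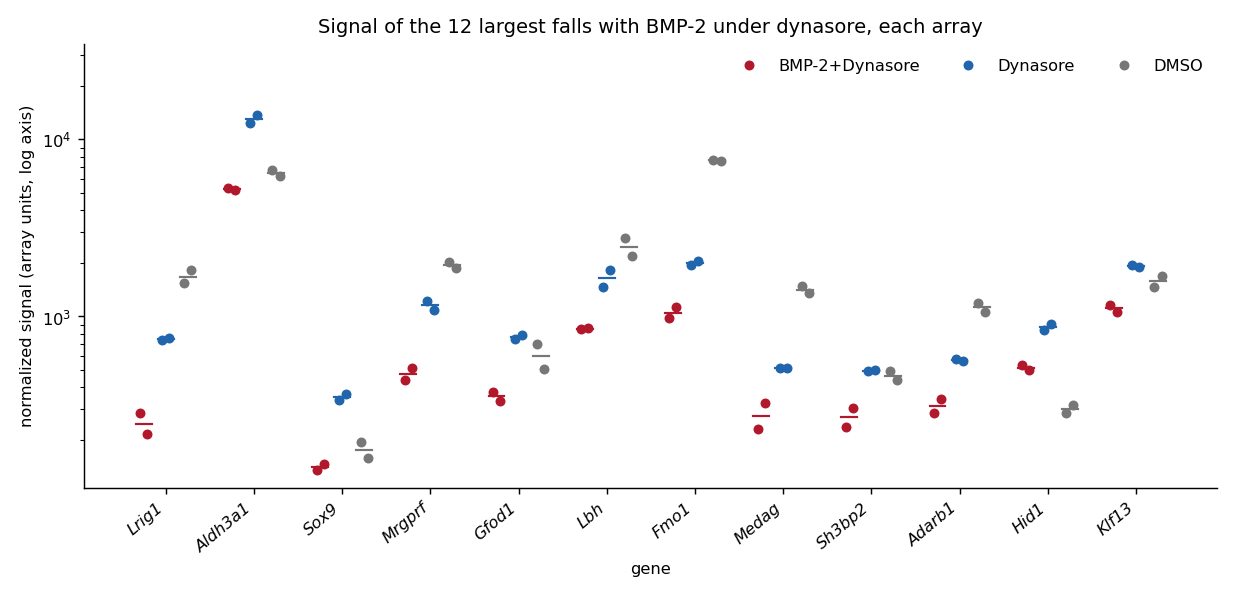
Normalized signal on a log axis for the 12 genes with the largest called falls, in order of log2 change from left to right, on each BMP-2+Dynasore (red), Dynasore (blue) and DMSO (grey) array, with a bar at the mean of the log values of a group. The red points lie below the blue ones in each gene, and Lrig1 and Fmo1 were also lower on Dynasore than on DMSO arrays.

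Among transcription factors that fell was Tcf7l1, a repressor of Wnt target genes, at 1273 and 1086 on BMP-2+Dynasore arrays and 1986 and 1988 on Dynasore arrays. The array's probe is also listed under the older symbol Tcf3 in the list of E proteins and helix-loop-helix factors, to which this gene does not belong. Jund, an AP-1 subunit, read 506 and 446 on BMP-2+Dynasore arrays and 805 and 794 on Dynasore arrays, a 1.68-fold fall that was the 1 call among 11 immediate early genes. Over all tested probes 0.870% were called, which is the background for this count and the next. Ccn4, a matricellular protein gene, read 810 and 669 on BMP-2+Dynasore arrays, against 1214 and 1305 on Dynasore arrays and 2152 and 2074 on DMSO arrays, a 1.71-fold fall. It was the 1 call among 12 tested CCN, TGF-beta and YAP target genes; Ccn2 read 446 and 590 on BMP-2+Dynasore arrays and 358 and 369 on Dynasore arrays (adjusted p = 0.246), and Tgfb3 310 and 377 against 217 and 199 (adjusted p = 0.0595).

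In gene lists of which many members differed between Dynasore and DMSO, counts of calls with BMP-2 were 0, which at 0.870% of all tested probes called is near the background for lists of this size. None of 23 tested ATF4 and CHOP stress genes was called with BMP-2 under dynasore, although 18 of them were higher in Dynasore than in DMSO. Ddit3, which encodes CHOP, read 10034 and 7265 on BMP-2+Dynasore arrays, against 8914 and 9014 on Dynasore arrays and 268 and 286 on DMSO arrays. Hmox1, a gene of the NRF2 response, read 31863 and 28385 on BMP-2+Dynasore arrays, against 32307 and 37208 on Dynasore arrays and 334 and 529 on DMSO arrays. None of 14 endoplasmic reticulum chaperone genes, 16 NRF2 genes, 21 hypoxia genes or 21 sterol and fatty acid genes was called. In the chaperone list both BMP-2+Dynasore arrays lay below both Dynasore arrays for 7 of 14, against 17.8% of all tested probes, among them Calr, which is 1 of the probes lost on replicate 2. Hmgcs1, an early enzyme of sterol synthesis, read 4163 and 4599 on BMP-2+Dynasore arrays, against 4578 and 4345 on Dynasore arrays and 29834 and 30629 on DMSO arrays.

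Growth and matrix genes gave 1 call, where 0.870% of all tested probes were called. Of 20 tested cell cycle genes 1 was called, Rrm2, a subunit of ribonucleotide reductase, which rose 1.96-fold. None of 21 endocytosis genes, 13 collagens, 12 SRF and contractile genes, 10 cytokines, 9 ERK feedback genes or 5 small leucine-rich proteoglycans was called. A count of 0 is near the background for lists of this size. Prelp, of the proteoglycan list, read 127 and 164 on BMP-2+Dynasore arrays and 84 and 92 on Dynasore arrays (log2 change 0.71, adjusted p = 0.163). None of 9 control genes was called, and the 2 Gapdh probes had log2 changes of 0.00 and 0.04.

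The probes that the study had sorted by their response to dynasore were read in the same way. These lists were chosen on these same arrays, so they are no independent evidence of a direction. Of 20 probes sorted as independent of endocytosis 5 rose, Id2, Krt16, Plpp3, Odc1 and a probe without a symbol, and 18 had both BMP-2+Dynasore arrays above both Dynasore arrays, with a median log2 change of 0.50. Of 483 sorted as dependent 16 rose and none fell, and 324 had both arrays above, with a median of 0.21. The background for these counts is 0.637% called higher and 24.0% with both arrays above. The study read its values against DMSO, whereas Dynasore is the baseline here. In Dynasore against DMSO all 20 of the first list were called higher. Of the 483, 122 were called higher and 236 lower, where 18.6% and 20.1% of all tested probes were. The part of this baseline in the medians of the lists was not tested. Members of the first list that were not called include Zbtb2 (log2 change 0.72, adjusted p = 0.073), Btc (0.49, adjusted p = 0.37) and Zfp64 (0.15, adjusted p = 0.651). Nfil3, Cebpb, Ccng1 and Cdc27, also named by the study, were not called, with log2 changes of 0.00, −0.04, −0.01 and −0.10.

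The log2 changes without dynasore come from other arrays than those under dynasore and can be set beside them. The calls are not separate, because both sets take their spread from the same BMP-2+Dynasore, Dynasore and DMSO arrays. A probe with a small spread on these arrays is favored in both sets. The part of this shared spread in the overlap of calls was not tested. Because BMP-2+DMSO replicate 2 correlated with its duplicate at r = 0.768 and had 7429 probes above background against 9302 on replicate 1, replicate 1 was used alone against DMSO, its spread assumed to be that of the other groups. On it 195 probes were called higher (1.97%) and 262 lower (2.65%). Of the 63 rises under dynasore 62 (98.4%) were above both DMSO arrays on replicate 1, as were 37.0% of all tested probes, and 47 (74.6%) were called there, which is 24.1% of the 195. With both BMP-2+DMSO arrays 50 of the 63 lay above both DMSO arrays (19.7% of all tested). Of the 23 falls 21 (91.3%) were below both DMSO arrays on replicate 1 (37.5% of all tested) and 17 were called lower there. Across genes the log2 changes under dynasore and on replicate 1 correlated at r = 0.235 over all tested probes and 0.811 over the 86 called, where genes are not independent replicates. The 195 probes called on replicate 1 had a median log2 change of 0.40 under dynasore and 1.06 in vehicle, a list chosen for its size in vehicle. The 63 rises, chosen for their size under dynasore, had medians of 1.21 under dynasore and 1.22 on replicate 1.

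**Figure D5:**
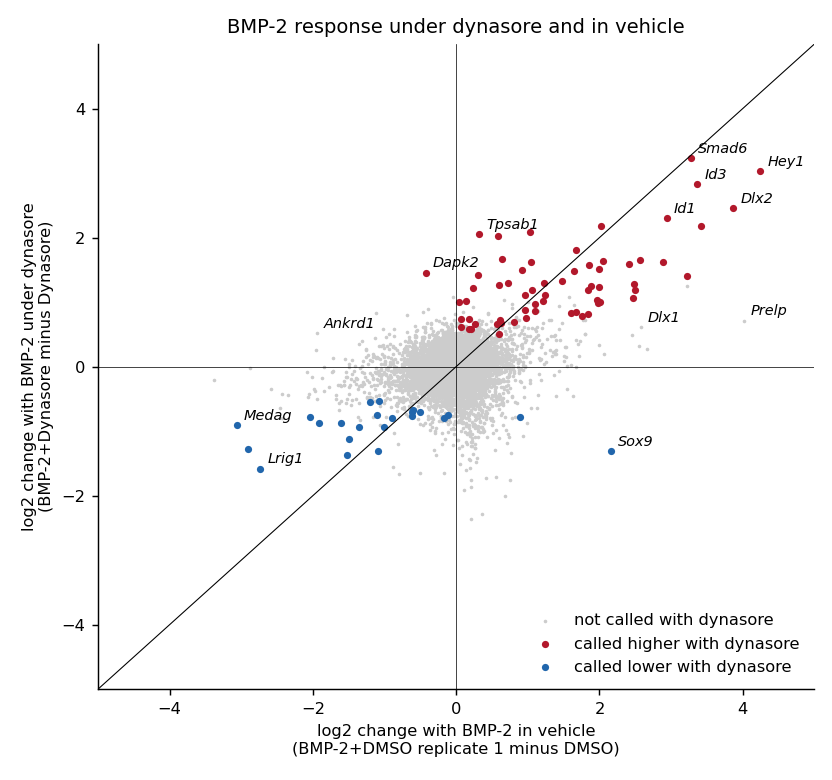
Log2 change with BMP-2 under dynasore (vertical, BMP-2+Dynasore minus Dynasore) against that in vehicle (horizontal, BMP-2+DMSO replicate 1 minus DMSO), 1 point per tested probe, with the line of equality. With this array most called probes share their sign in both, Prelp and Dlx1 changed mainly in vehicle, Tpsab1 and Dapk2 mainly under dynasore, and Sox9 had opposite signs. BMP-2+DMSO replicate 2, not plotted, read 34.9 for Sox9 against 195 and 160 on DMSO arrays. It read 722 for Tpsab1 against 135 and 143, and 1270 for Dapk2 against 682 and 590.

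Whether the responses differed was tested as the interaction, the change under dynasore minus that in vehicle. With all 8 arrays no probe was called (204 had an unadjusted p under 0.05), without BMP-2+DMSO replicate 2 there were 91 (0.920%), and without replicate 1 there were 5578 (56.4%). The values that follow leave out replicate 2 and so rest on 1 BMP-2+DMSO array. Smad6 changed by 3.23 log2 units under dynasore and 3.28 in vehicle (interaction −0.05 ± 0.24, SE, adjusted p = 0.958). This rests on replicate 1 at 2198, since replicate 2 read 128 against 231 and 222 on DMSO arrays, and the interaction was 2.01 with all 8 arrays (adjusted p = 0.908) and 4.06 without replicate 1. Id3 changed by 2.83 under dynasore and 3.36 in vehicle (interaction −0.53, adjusted p = 0.288), Id1 by 2.30 and 2.94 (−0.63, adjusted p = 0.243) and Id2 by 1.60 and 2.41 (−0.82, adjusted p = 0.306). A p that misses the threshold does not show that these responses were equal. Hey1 changed by 3.03 under dynasore and 4.24 in vehicle, a difference of −1.21 that passed (adjusted p = 0.0319), and Dlx2 by 2.46 and 3.86, a difference of −1.41 that did not (adjusted p = 0.0688). With all 8 arrays the differences were −1.12 for Hey1 and −1.71 for Dlx2 (adjusted p = 0.908 each). Prelp had a log2 change of 0.71 under dynasore and 4.01 in vehicle (interaction −3.30, adjusted p = 0.000387), and Ccn2 of 0.50 and 2.45 (−1.95, adjusted p = 0.00407). With all 8 arrays these differences were −3.67 and −2.03 and did not pass (adjusted p = 0.846 and 0.908).

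Over the 6 arrays the genes whose log2 values followed Smad6 most closely were Id1 (r = 0.995), Sdc3 (0.994), Wnt4 (0.989), Mmp11 (0.985) and Samhd1 (0.983), all of which were called rises. The 6 values come in 3 groups of 2, and the likeness is a description. Mmp11, a matrix metalloproteinase, read 2213 and 2650 on BMP-2+Dynasore arrays, against 801 and 904 on Dynasore arrays and 1204 and 1126 on DMSO arrays, the same order of groups as in Smad6. Sdc3, a heparan sulfate proteoglycan, had this order at 5640 and 5367 on BMP-2+Dynasore arrays, 3058 and 2966 on Dynasore arrays and 3612 and 3702 on DMSO arrays.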

How the data were processed

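RNA of C2C12 cells was hybridised to 1-colour MouseRef-8 arrays, 2 per group. The authors deposited intensities after background subtraction and rank invariant normalization in BeadStudio 3.0. A further 8 numbered signal columns with no sample label were not used. Intensities were corrected with normexp (offset 16), log2 transformed and quantile normalized over the 6 arrays without BMP-2+DMSO, and BMP-2+DMSO arrays were then mapped onto that distribution. Probes that exceeded background on 2 or more of these arrays were tested, the limit being the mode of dim probes plus 1.645 SD. Groups were fitted in limma 3.58.1 (R 4.3.3; eBayes with trend and robust), with Benjamini-Hochberg adjustment over 9889 probes and a threshold of 0.05. "At least" folds set the measured group against the background limit of the other. Named genes are the 12 largest called rises and 12 largest called falls with a symbol, genes the study names, members of the BMP target, Id and Dlx, Smad and osteoblast lists, and up to 4 members of each other list with the largest change. Other called genes described by role, among them Gadd45b, Wnt4, Inhba, G0s2 and Car12 where no list holds them, and the example probes of the array that stood apart were chosen after their values were seen. Where a gene had several probes its list entry is the probe with the highest mean. Members and lists were chosen with earlier results of these data known. Array number limits precision. The script was tested on simulated data.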

Additional observations from a re-analysis of the deposited data

Results flagged for a closer look

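For 25 named genes the log2 change with BMP-2 differed between dynasore (BMP-2+Dynasore minus Dynasore) and vehicle (BMP-2+DMSO replicate 1 minus DMSO) in limma's interaction test without BMP-2+DMSO replicate 2, at adjusted p values of 0.000292 to 0.047. The single BMP-2+DMSO array was assumed to vary like the other groups. With all 8 arrays none of the 25 passed, with adjusted p values of 0.846 to 0.991, so each call rests on leaving that array out.

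Genes that BMP-2 raised under dynasore but by less than in vehicle were Hey1 (difference −1.21, from 3.03 under dynasore and 4.24 in vehicle), Avpr1a (difference −1.24, from 2.17 under dynasore and 3.41 in vehicle), Enc1 (difference −1.21, from 1.28 under dynasore and 2.49 in vehicle) and Krt14 (difference −1.02, from 0.82 under dynasore and 1.84 in vehicle). Genes not called under dynasore whose difference was negative were Prelp (difference −3.3, from 0.71 under dynasore and 4.01 in vehicle), Dlx1 (difference −1.97, from 0.61 under dynasore and 2.58 in vehicle), Ccn2 (difference −1.95, from 0.50 under dynasore and 2.45 in vehicle) and Stc2 (difference −1.87, from 0.19 under dynasore and 2.07 in vehicle). Genes called lower under dynasore and higher on BMP-2+DMSO replicate 1 were Sox9 (difference −3.47, from −1.31 under dynasore and 2.16 in vehicle) and Ttyh3 (difference −1.67, from −0.78 under dynasore and 0.90 in vehicle). On BMP-2+DMSO replicate 2 both were below DMSO, Sox9 at 34.9 against 195 and 160 and Ttyh3 at 231.5 against 1106 and 1226, and with all 8 arrays the differences were −1.22 and −0.06, so the opposite direction is in 1 array.

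Positive differences were found in rises under dynasore, Tpsab1 (difference 1.73, from 2.05 under dynasore and 0.32 in vehicle) and Dapk2 (difference 1.88, from 1.46 under dynasore and −0.43 in vehicle). On BMP-2+DMSO replicate 2 both were above DMSO, Tpsab1 at 722 against 135 and 143 and Dapk2 at 1270 against 682 and 590. Without replicate 1 their differences were −0.33 and 0.45. Positive differences were also found in falls that were smaller under dynasore than in vehicle, Mrgprf (difference 1.63, from −1.28 under dynasore and −2.91 in vehicle), Medag (difference 2.15, from −0.91 under dynasore and −3.06 in vehicle) and Ccn4 (difference 1.27, from −0.77 under dynasore and −2.05 in vehicle). Among genes not called under dynasore, the chemokine and mechanical response genes with a positive difference were Ankrd1 (difference 2.46, from 0.52 under dynasore and −1.95 in vehicle), Cxcl12 (difference 2.24, from −0.34 under dynasore and −2.59 in vehicle), Cxcl1 (difference 1.86, from 0.14 under dynasore and −1.72 in vehicle) and Fhl2 (difference 1.28, from 0.32 under dynasore and −0.97 in vehicle). The others were Ccnd1 (difference 1.27, from 0.09 under dynasore and −1.18 in vehicle), Bmp4 (difference 1.2, from −0.19 under dynasore and −1.39 in vehicle), Vldlr (difference 1.15, from 0.14 under dynasore and −1.01 in vehicle) and Egr1 (difference 1.02, from −0.26 under dynasore and −1.29 in vehicle), with Slc2a1 (difference 0.945, from −0.01 under dynasore and −0.95 in vehicle) and Ndrg1 (difference 0.881, from −0.40 under dynasore and −1.28 in vehicle) from the hypoxia list. The sign was the same with all 8 arrays in 24 of the 25, the exception being Enc1 at 0.17.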

How the results depend on the processing

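All 86 called probes kept their sign in every setting that tested them (77 were tested when background had to be passed on all 6 arrays). In settings that only left out an array this was fixed in advance, as the arrays of called probes did not overlap. It was also fixed where only the test, the filter or the arrays fitted changed, as the difference of means stayed the same. Only settings with other normalized values could have altered a sign. Counts of calls moved more. Against 63 rises and 23 falls, the 4 arrays alone gave 13 falls, the fit of all 8 arrays 2 and 0, deposited values floored at 16 gave 98 rises, and eBayes without trend and robust 39 and 6. The methods' one-way test at over 1.4-fold gave 177 and 104, and a plain two-sample test 444 and 257 before and 1 and 0 after Benjamini-Hochberg. In the BMP target list and the Id and Dlx list, 2 and 2 members rose with all 8 arrays and 0 and 0 in the plain test after adjustment, against 7 and 5. Non-overlapping probes numbered 3782 higher and 3075 lower with no filter, and 3177 and 1023 (75.6% higher, against 57.4%) with floored values, which moved the median of all probes to 0.12. Leaving out 1 array at a time gave 32 to 699 rises, 5 to 1002 falls, 3464 to 4762 and 2841 to 3518 non-overlapping probes (BMP-2+Dynasore or Dynasore arrays left out), 6 to 12 BMP target genes and 5 to 7 Id and Dlx genes. Interaction calls were 0 with 8 arrays and 91 to 5578 without 1 BMP-2+DMSO array. The cause of these shifts was not tested. With the replicate number as a block there were 56 rises and 19 falls, 74 of these 75 calls shared. Duplicate differences of BMP-2+Dynasore correlated at 0.00 with those of Dynasore, −0.24 with DMSO and 0.51 with BMP-2+DMSO. Those of Dynasore and DMSO correlated at −0.003. Whether arrays of the same number were paired cannot be told from these values. The 7-array fit without BMP-2+DMSO replicate 2, chosen after seeing the data, gave 64 and 22. Signals near background limit low genes.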
